A study of Mus musculus with 40 samples.

Results

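The genes described here encode the cyclic AMP pathway that holds the mammalian oocyte in meiotic prophase. They were chosen by name, with earlier results of these data known, and no measured value entered the rule. They are the receptor Gpr3, the G protein Gnas, the cyclase Adcy3, the phosphodiesterase Pde3a, the protein kinase A (PKA) subunits Prkaca, Prkacb, Prkar1a and Prkar2b, and the connexin Gja4. Of these 9 genes, 8 were listed in at least 1 of the 8 deposited tables, which together list 11323 genes. Gpr3, Gnas, Pde3a, Prkar1a and Gja4 were in all 8 tables and Prkar2b in 6. Prkaca and Prkacb were in the 4 tables of total RNA only. Adcy3 was not listed in the tables used here, and its level was not analysed here.

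In a growing follicle the oocyte makes its own cyclic AMP. GPR3 is a constitutively active receptor that signals through the stimulatory G protein encoded by Gnas to adenylyl cyclase, and in mouse oocytes ADCY3 is a main cyclase. PKA, a complex of catalytic and cyclic AMP-binding regulatory subunits, then keeps the kinase CDK1 inactive by acting on the kinase WEE2 and the phosphatase CDC25B. Cyclic GMP from the surrounding granulosa and cumulus cells reaches the oocyte through gap junctions built of connexin 37, the product of Gja4, and inhibits PDE3A, the phosphodiesterase that breaks cyclic AMP down. When the cyclic GMP supply stops, PDE3A removes cyclic AMP and meiosis resumes.

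The samples were mouse oocytes that had already matured, and pronuclear zygotes. The oocyte groups were IVM, stripped of cumulus cells and matured in culture, COC, matured in culture as intact cumulus-oocyte complexes, and IVO, matured in the animal. The zygote groups were IMZ, from culture-matured oocytes fertilized in vitro, and IVZ, in which maturation and fertilization took place in the animal. For each, unfractionated total RNA and polysomal RNA, which is carried by translating ribosomes, were sequenced in 4 libraries, making 40 libraries in 10 groups. Strain, age, hormone treatment and culture times are not given in the labels. Nor do the labels name an animal or collection for any library, and p-values therefore measure only the spread between these libraries, which may be technical. All samples carry the tissue label ovarian and the cell type label germ cell.

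Values are RPKM as deposited, read counts scaled to gene length and library size. Recovered depth was 46.6 to 63.2 M reads in the total RNA libraries and 3.14 to 25.6 M in the 12 of 20 polysomal libraries that gave one. Within groups, Spearman correlations across genes were 0.983 to 0.996 in total RNA and 0.663 to 0.949 in polysomal RNA. Polysomal IVM replicate 1 and IVZ replicate 1 carry a column header saying that the authors left them out on the basis of a principal component plot. They were used here, and the polysomal comparisons that hold them are also described without them. Of 14 oocyte markers 13 were listed in every group, with summed levels of 4395 to 5646 RPKM in the oocyte and 2979 to 3671 RPKM in the zygote total RNA libraries. Of 24 cumulus and granulosa markers 2 to 4 were listed in total RNA, with summed levels of 9.41 to 16.2 RPKM, and COC libraries, at 13.6 to 16.2, overlapped with IVM and IVO libraries. In total RNA these were Cyp19a1 and Egfr in every group, Kitl in IVM and COC, and Grem1 in COC and IVO. Has2, Npr2 and Gja1 were among the markers not listed. A gene below 0.2 RPKM in any library of a table is left out of it, so an unlisted marker need not be absent.

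Per unit of gene length, Gja4 was by far the most abundant of these transcripts, and Prkacb the least. In IVO total RNA Gja4 ranked 101 of 11040 genes, above 99.1% of them, with a mean of 279 ± 27.0 RPKM (SD, n = 4). Pde3a followed at 39.1 ± 4.78, Gpr3 at 21.6 ± 1.94, Prkar1a at 19.8 ± 0.859 and Gnas at 14.3 ± 2.18. Prkaca stood at 8.99 ± 1.12, Prkar2b at 6.04 ± 0.591 and Prkacb at 1.496 ± 0.106. The level order of these 8 genes thus ran from a connexin among the most abundant transcripts of the oocyte down to a catalytic subunit at rank 8535. Reads behind each value in total RNA had a median of 22818 for Gja4, 3184 for Gpr3 and 834 for Prkacb.

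**Figure D1:**
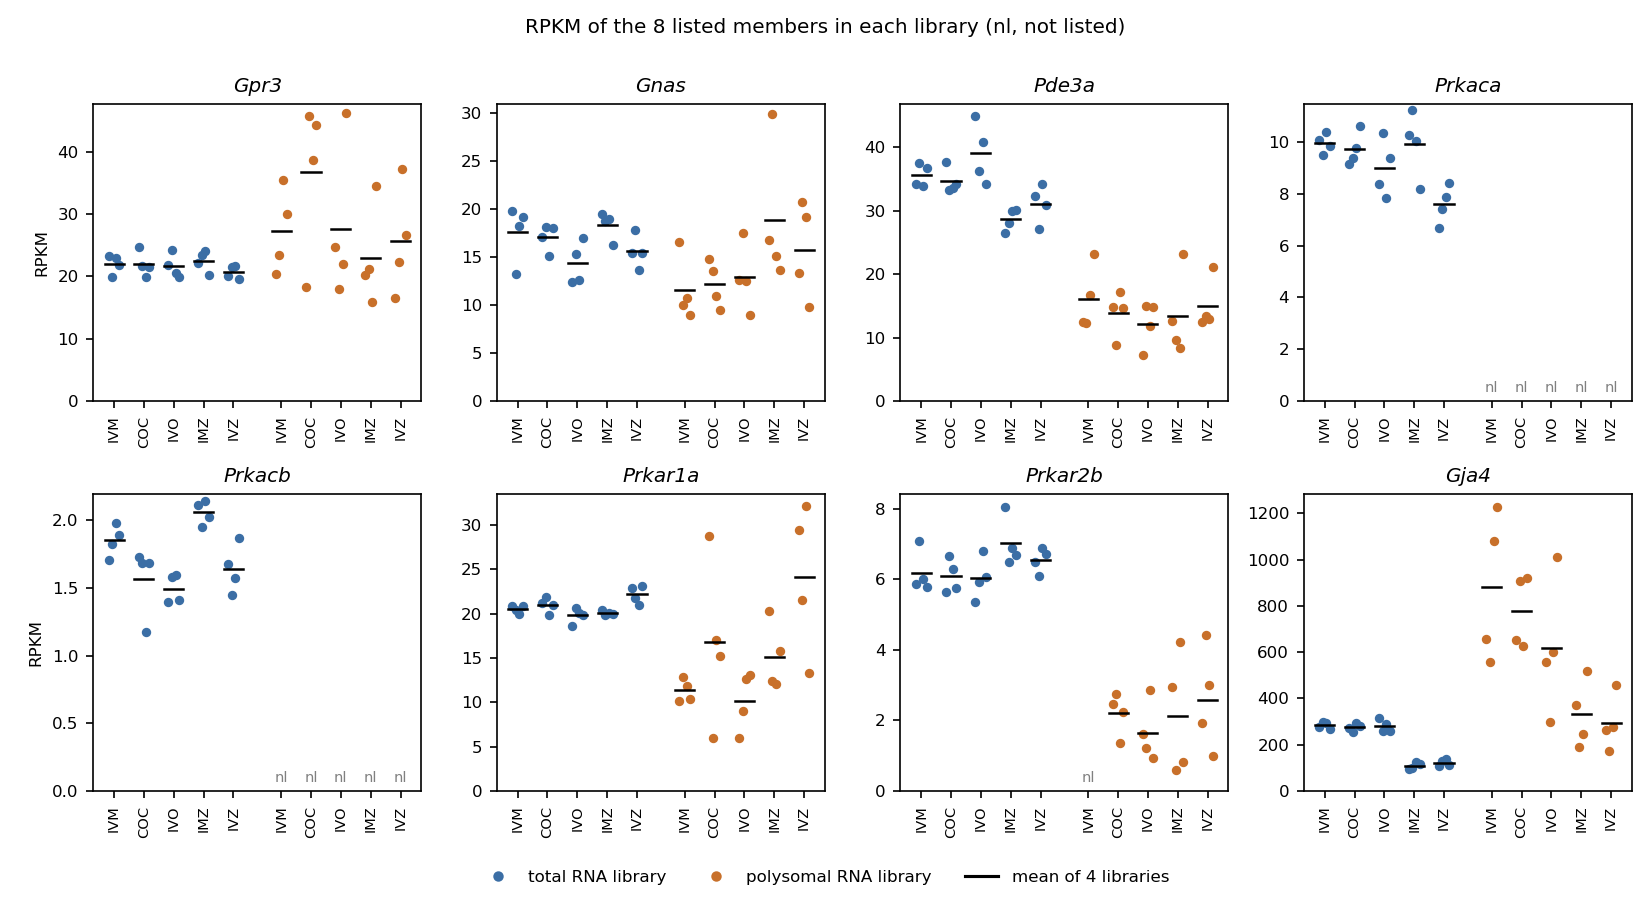
Level of each listed gene in RPKM (vertical axes, each starting at 0) in every library, with total RNA in blue, polysomal RNA in orange and a black line at the mean of 4 libraries. Gja4 lies at 255 to 313 RPKM in all 12 oocyte total RNA libraries and at 93.2 to 138 in all 8 zygote ones, while Gpr3 and Prkar1a stay within 18.6 to 24.8 RPKM across all total RNA groups.

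The first comparison asked whether maturation in vitro altered these transcripts. In total RNA, no member was called for IVM against IVO, COC against IVO or IVM against COC (limma, Benjamini-Hochberg adjusted p under 0.05 over all genes of the table). The share of all genes called was 0.509%, 0.00911% and 0.0448% respectively. The first and second of these comparisons share the IVO libraries, and the others share the IVM or the COC libraries, so they are not independent.

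On the cyclic AMP-producing side, Gpr3 read 23.2, 19.9, 23.0 and 21.9 RPKM in the IVM libraries, 24.8, 21.6, 19.9 and 21.5 in the COC libraries and 21.8, 24.3, 20.5 and 19.9 in the IVO libraries. The 3 groups overlapped throughout. The 95% interval of the IVM minus IVO difference ran from −0.16 to 0.21 on the log2(RPKM + 1) scale, and that of COC minus IVO from −0.17 to 0.22.

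Gnas read 19.8, 13.3, 18.3 and 19.2 RPKM in IVM, 17.1, 18.2, 15.2 and 18.02 in COC and 12.4, 15.3, 12.7 and 17.0 in IVO. Its mean was lower in IVO than in both in vitro groups, with overlapping libraries. COC minus IVO was 0.25 ± 0.11 on the log2 scale, with an unadjusted p of 0.0450, under 0.05 as for 7.08% of all genes, and an adjusted p of 0.689 (limma). Values for Gnas, which encodes several transcripts from one imprinted locus on chromosome 2, carry a further limit. In GENCODE M21 its exons overlap those of the antisense genes Nespas and Gm20721 by 988 and 1469 bases. Because the strand setting of the counting is not given, reads of the opposite strands cannot be told apart. Gpr3 overlaps Cd164l2 on the opposite strand by 204 bases and Pde3a overlaps Gm28523 by 741, with the same limit. The PKA subunit genes and Gja4 had no such overlap.

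Pde3a, which degrades cyclic AMP, read 34.3, 37.5, 33.9 and 36.7 RPKM in IVM, 37.8, 33.3, 33.6 and 34.2 in COC and 45.0, 36.3, 40.9 and 34.3 in IVO. The IVO group was the most spread and overlapped both others. The intervals of the difference were −0.33 to 0.08 for IVM minus IVO and −0.37 to 0.04 for COC minus IVO.

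Of the PKA genes, Prkacb, a catalytic subunit, had the smallest p. It read 1.71, 1.83, 1.98 and 1.89 RPKM in IVM and 1.40, 1.58, 1.595 and 1.41 in IVO, so that every IVM library lay above every IVO library. The same held for 7.32% of all genes. The difference was 0.19 ± 0.06 on the log2 scale (95% interval 0.05 to 0.33), with an adjusted p of 0.299 (limma), and it did not pass. Prkaca was at 9.96 ± 0.385 in IVM, 9.74 ± 0.634 in COC and 8.99 ± 1.12 in IVO. Prkar1a, the type I regulatory subunit, was at 20.5 ± 0.438, 21.0 ± 0.836 and 19.8 ± 0.859 in the same order, and Prkar2b, a type II regulatory subunit, at 6.19 ± 0.605, 6.08 ± 0.477 and 6.04 ± 0.591. Libraries of the 3 groups overlapped for these 3 subunits.

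Gja4 read 276, 296, 294 and 268 RPKM in IVM, 269.8, 255, 292 and 282 in COC and 313, 258, 288 and 257 in IVO. Denuded oocytes, cultured without cumulus cells, and complexes overlapped with in vivo oocytes. The interval of the difference was −0.18 to 0.23 for IVM minus IVO and −0.22 to 0.18 for COC minus IVO.

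Few other genes of the pathway were called in total RNA. None of 42 other cyclic AMP pathway genes was called for IVM against IVO or COC against IVO, and the gene with the smallest p was the cyclase gene Adcy6 in the former, at 0.29 ± 0.07 (adjusted p 0.180, limma). Of 10 gap junction and cyclic GMP genes 1 was higher in IVM than in IVO. It was Impdh2, which encodes the IMP dehydrogenase of guanine nucleotide synthesis, at 0.70 ± 0.07 (adjusted p 0.00493, limma), a call kept when any 1 library was left out. With the replicate number as a block that call was lost (adjusted p 0.174, limma). Of 12 genes for kinases and phosphatases on which PKA acts in the oocyte, directly or through the CDK1 network, none was called. The median log2 difference over the 8 members was 0.04 for IVM minus IVO, beside 0.03 for all genes.

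In polysomal RNA no gene at all was called in the 3 oocyte comparisons, a share of 0% each. At an unadjusted p under 0.05, 2.98%, 5.23% and 4.44% of all genes passed in IVM against IVO, COC against IVO and IVM against COC, and 0 members passed in each. The intervals were wide: for Gja4 −0.31 to 1.44 and for Gpr3 −0.74 to 0.83 in IVM minus IVO. At this spread a doubling of Gja4 in IVM polysomes would lie inside the interval, so the absence of calls does not show that polysomal levels were alike. Without IVM replicate 1 again 0 genes were called in both comparisons that hold it, and the IVM minus IVO intervals were −0.30 to 1.66 for Gja4 and −0.61 to 0.95 for Gpr3. Prkar1a was spread widely among the COC libraries, at 28.8, 5.92, 17.1 and 15.2 RPKM.

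The second comparison set oocytes matured in vivo against in vivo zygotes, and here Gja4 fell. It shares the IVO libraries with the comparisons above and the IVZ libraries with the next. It read 313, 258, 288 and 257 RPKM in the IVO total RNA libraries and 106, 128, 138 and 114 in the IVZ ones. The groups lay far apart, with the highest zygote library under the lowest oocyte library. The log2 difference was −1.20 ± 0.11 (95% interval −1.44 to −0.96), with an adjusted p of 4.34e-05 (limma), at rank 130 of 10674 genes by p. Gja4 was the only 1 of the 8 listed members called, where 16.2% of all genes were called and 14.1% were called lower. The call was kept in all 13 settings tried for this contrast, the one reported included. IMZ libraries, at 93.2, 97.3, 125 and 114 RPKM, overlapped with IVZ libraries, and every one of them also lay below the 12 oocyte libraries of total RNA. RPKM is a share of each library, so fewer transcripts per cell and a rise of other transcripts cannot be told apart. Oocyte markers moved with it: 6 of 13 were called lower, with a median difference of −0.47 beside −0.02 for all genes, and their part in the result was not tested.

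Pde3a was also lower in zygotes without passing the test. The IVO libraries read 45.0, 36.3, 40.9 and 34.3 RPKM and the IVZ libraries 32.3, 27.2, 34.2 and 31.0. The lowest oocyte library, at 34.3, stood just above the highest zygote library, at 34.2, a separation that 22.2% of all genes showed. The difference was −0.32 ± 0.10 (interval −0.55 to −0.09), with an adjusted p of 0.0644 (limma). It was called in 2 of 13 settings, without IVO total RNA replicate 4 (adjusted p 0.0429, limma) and with the replicate number as a block (0.0255). Under median-of-ratios scaling the difference was −0.26 (adjusted p 0.168, limma).

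Prkar1a read 18.6, 20.7, 20.1 and 19.9 RPKM in IVO and 22.9, 21.8, 20.9 and 23.1 in IVZ. Its groups too did not overlap, as for 22.2% of all genes. The difference of 0.16 ± 0.07 had an adjusted p of 0.170 (limma). Gpr3, with 19.7 to 21.7 RPKM in IVZ against 19.9 to 24.3 in IVO, differed by less than the spread between libraries, within an interval of −0.23 to 0.13. Gnas, Prkaca, Prkacb and Prkar2b overlapped between oocytes and zygotes.

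In polysomal RNA, 0.454% of genes and 0 members were called between IVZ and IVO. The polysomal mean of Gja4 was 616 ± 295 RPKM in IVO and 292 ± 120 in IVZ. Its difference of −1.03 ± 0.39 came near that in total RNA, with overlapping libraries and an adjusted p of 0.284 (limma), and was −1.01 (adjusted p 0.294) without IVZ replicate 1. Prkar1a stood higher in zygote polysomes, at 29.5, 21.6, 32.2 and 13.3 RPKM, than in oocyte polysomes, at 5.94, 9.01, 12.6 and 13.0. These groups did not overlap, as for 7.69% of all genes. The difference was 1.16 ± 0.40 (adjusted p 0.239, limma), and without IVZ replicate 1, which the authors excluded, it was 1.04 (adjusted p 0.256).

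Around these members, the gap junction and cyclic GMP list had 3 of 10 genes lower in IVZ total RNA and none higher, where 14.1% of all genes were called lower and 2.12% higher. These were Gja3 (connexin 46) at −0.49 ± 0.07, Gmpr (GMP reductase) at −0.92 ± 0.14 and Gjb2 (connexin 26) at −0.58 ± 0.11, with adjusted p of 0.000725, 0.00117 and 0.00492 (limma). The median of that list was −0.03 beside −0.02 for all genes. Of 42 other cyclic AMP genes 2 were higher and none lower: Gnai2, an inhibitory G protein subunit, at 0.33 ± 0.07, and the PKA anchoring gene Akap7 at 0.33 ± 0.08. Of the 12 kinase and phosphatase genes 2 were lower, a share near that of all genes: Mastl (Greatwall kinase) at −0.30 ± 0.07 and Cdc25c, an activating phosphatase of CDK1, at −0.44 ± 0.11. The G protein, anchoring and gap junction genes were called in every setting in which they could be fitted. For Gja3 these were 12 settings, since its mean was under 1 RPKM and the filter at that level left it out. Mastl was called in 11 of 13 settings, not without IVZ replicate 1 or under median-of-ratios scaling, and Cdc25c in 8 of 13, not without IVO replicate 2 or 4 or IVZ replicate 1, 3 or 4.

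**Figure D2:**
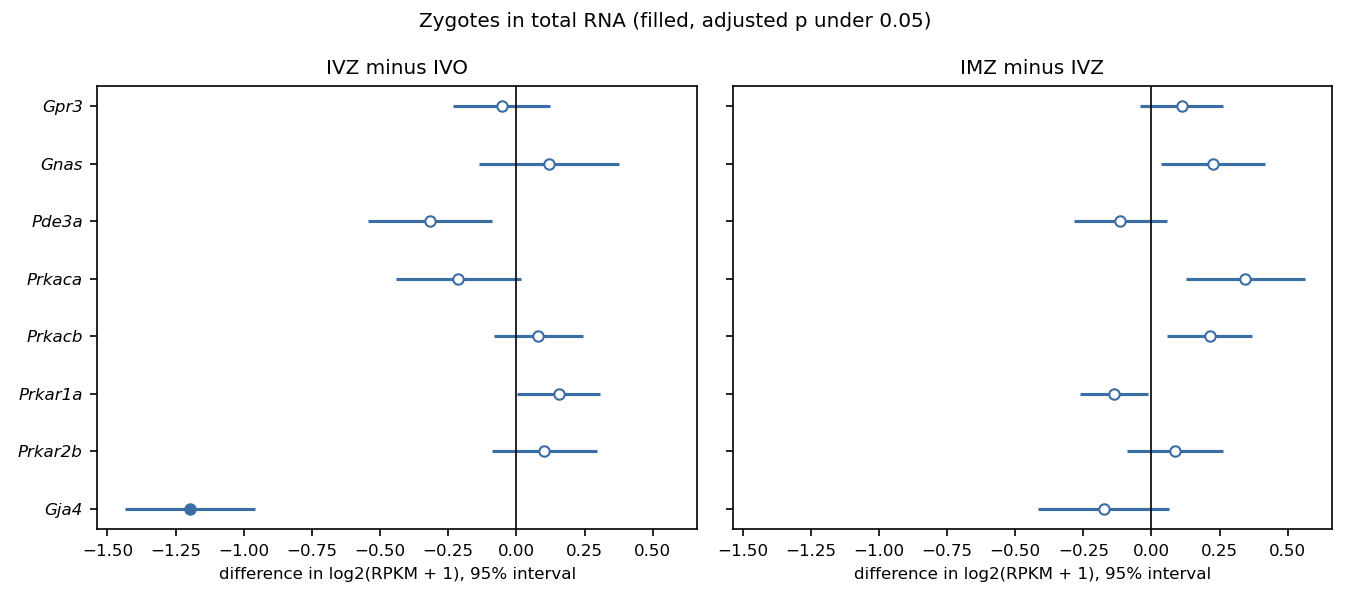
Differences in log2(RPKM + 1) with 95% intervals in total RNA for the 8 listed genes, IVZ minus IVO on the left and IMZ minus IVZ on the right, on 1 common scale, with filled points for an adjusted p under 0.05. Gja4 in IVZ minus IVO, at −1.20, is the only filled point, and the largest value on the right is Prkaca at 0.34.

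The third comparison set zygotes of in vitro origin against in vivo zygotes. In total RNA 1.66% of all genes and 0 of the 8 members were called, yet 4 members had an unadjusted p under 0.05, as did 18.9% of all genes. These were both catalytic PKA subunits, Prkar1a and Gnas.

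Prkaca read 10.28, 11.2, 10.03 and 8.20 RPKM in IMZ and 6.67, 7.40, 7.89 and 8.43 in IVZ. IMZ replicate 4 alone fell inside the IVZ range. The difference was 0.34 ± 0.10 (interval 0.13 to 0.56), higher than for 98.6% of genes, with an adjusted p of 0.102 (limma). Without IMZ replicate 4 it was 0.42 and the adjusted p 0.0324, so 1 library decides this call. Prkacb read 2.11, 1.95, 2.15 and 2.03 RPKM in IMZ and 1.68, 1.45, 1.58 and 1.87 in IVZ, without overlap, as for 11% of all genes. Its difference was 0.21 ± 0.07 (adjusted p 0.146, limma).

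Prkar1a went the other way, at 20.4, 19.8, 20.04 and 19.9 RPKM in IMZ and 22.9, 21.8, 20.9 and 23.1 in IVZ. These groups did not overlap either, as for 11% of all genes. The difference was −0.14 ± 0.06 (adjusted p 0.222, limma). Prkar2b, at 7.02 ± 0.699 in IMZ and 6.54 ± 0.352 in IVZ, overlapped. Summed over the 4 PKA genes, the catalytic subunits made up 27.8% to 33.4% of the RPKM in IMZ libraries and 22.1% to 25.7% in IVZ libraries. In oocytes that share was 29.2% to 32.3% in IVM, 28.0% to 31.5% in COC and 26.0% to 31.0% in IVO. Thus all 4 IVZ libraries had a lower catalytic share of these 4 genes than every other total RNA library. The gap was narrow, from 25.7% in the highest IVZ library to 26.0% in the lowest IVO library. Other PKA regulatory genes, Prkar1b and Prkar2a, were not part of the sum. These shares are given as a description, since they rest on the same values as above.

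**Figure D3:**
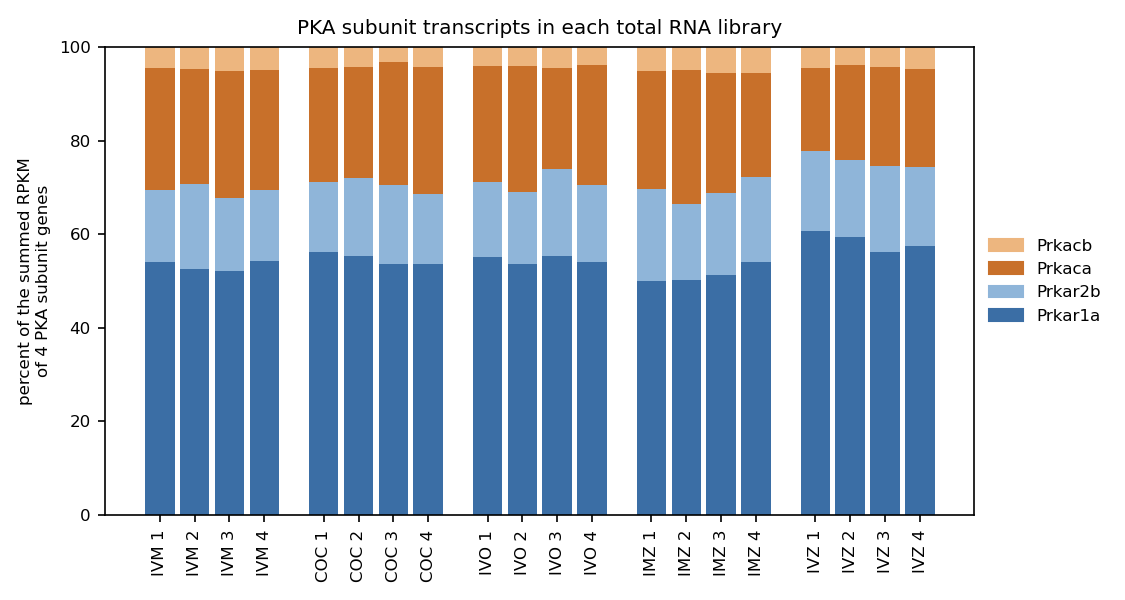
Share of each PKA subunit gene (percent of the RPKM summed over Prkar1a, Prkar2b, Prkaca and Prkacb) in each of the 20 total RNA libraries, grouped by cell type. The orange parts, Prkaca and Prkacb, together reach 22.1% to 25.7% in the IVZ libraries and 26.0% to 33.4% in the others.

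Gnas read 19.5, 18.7, 19.0 and 16.3 RPKM in IMZ and 15.5, 17.8, 13.7 and 15.5 in IVZ. Only IMZ replicate 4 fell into the IVZ range, and the difference was 0.23 ± 0.09 (adjusted p 0.196, limma). Gpr3 (22.5 ± 1.68 in IMZ and 20.7 ± 1.06 in IVZ), Pde3a (28.6 ± 1.73 and 31.1 ± 2.97) and Gja4 (108 ± 14.9 and 121 ± 14.3) overlapped. Among other genes of the pathway 1 of 44 was called, Gnb1, a G protein beta subunit, at 0.35 ± 0.07 (adjusted p 0.0369, limma). Of the 12 kinase and phosphatase genes Mastl was lower in IMZ at −0.33 ± 0.06 (adjusted p 0.0222). Both calls were lost without any 1 of IVZ replicates 1, 3 and 4 or IMZ replicates 1, 2 and 3, and that of Gnb1 also with the adjusted p-values of the authors' deposited table. In polysomal RNA 0% of genes were called between IMZ and IVZ, 5.68% had an unadjusted p under 0.05, and 0 members did. The intervals were wide, at −1.38 to 0.19 for Prkar1a and −1.22 to 0.67 for Prkar2b in IMZ minus IVZ. A halving of either would lie inside its interval, so the absence of calls does not show that polysomal levels were alike. Without IVZ replicate 1 again 0 genes were called.

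The fourth comparison set polysomal against total RNA within each cell type. RPKM is relative to each library, so these differences do not give the part of a transcript's molecules that is on polysomes. Here the members parted into transcripts high in polysomes, transcripts low in polysomes and transcripts between them. The share of all genes called was 55.1% in IVM, 67.9% in COC, 59.6% in IVO, 61.1% in IMZ and 41% in IVZ, so a call as such says little. Of the members tested, 3 of 5, 5 of 6, 4 of 6, 3 of 6 and 3 of 6 were called in that order. The median log2 difference of all genes was −0.51, −0.40, −0.56, −0.51 and −0.38, and values are best read against that shift.

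Gja4 was higher in polysomal than in total RNA in all 5 cell types. Its polysomal libraries read 658, 556, 1080.0 and 1227 RPKM in IVM, 652, 906, 626 and 921 in COC, and 558, 297, 600.1 and 1009.65 in IVO. In zygotes they read 369, 189, 248 and 519 in IMZ, and 261, 172, 278 and 458 in IVZ. All polysomal libraries lay above the total RNA libraries of their cell type, except IVO replicate 2, which fell inside the IVO total range. The log2 differences were 1.55 ± 0.25, 1.47 ± 0.15, 1.01 ± 0.32, 1.52 ± 0.27 and 1.18 ± 0.27 in IVM, COC, IVO, IMZ and IVZ, with adjusted p from 1.77e-05 to 0.0181 (limma). Genes called higher made up 15.3%, 23.4%, 14.1%, 15.1% and 10.9% of all genes, and Gja4 lay above 91.4% to 96.8% of all genes. It was called in all 13 settings in each cell type. Polysomal levels were 2.21 to 3.10 times the total RNA levels, or 2.97 to 4.39 times when divided by the median ratio of all genes. Gja4 thus ranked 16 of 5174 genes in IVM polysomes and 70 of 6336 in IVZ polysomes.

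Pde3a was low in polysomes in all 5 cell types. Against total RNA levels of 26.5 to 45.0 RPKM, its polysomal libraries read 12.4, 12.2, 16.6 and 23.2 in IVM, 14.9, 8.89, 17.1 and 14.6 in COC and 7.21, 14.9, 11.8 and 14.8 in IVO. In zygotes they read 12.7, 9.56, 8.29 and 23.1 in IMZ and 12.4, 13.4, 12.9 and 21.1 in IVZ. No polysomal library reached the total RNA libraries of its cell type. The log2 differences were −1.14 ± 0.23, −1.30 ± 0.19, −1.65 ± 0.25, −1.14 ± 0.27 and −1.04 ± 0.23, with adjusted p from 0.000185 to 0.00566 (limma), where 39.8%, 44.5%, 45.5%, 46% and 30.1% of all genes were called lower. Under median-of-ratios scaling, which removes most of the shift of all genes, the difference was −0.65, −0.89, −1.03, −0.61 and −0.66, and only the IVZ call was lost (adjusted p 0.0523).

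Prkar2b was also low in polysomes, in the 4 cell types in which it could be tested. It read 1.35 to 2.75 RPKM in COC polysomes against 5.63 to 6.66 in COC total RNA, and 0.920 to 2.87 in IVO polysomes against 5.37 to 6.80. In IMZ and IVZ polysomes it read 0.586 to 4.22 and 0.990 to 4.41, all below total RNA. The differences were −1.17 ± 0.20, −1.46 ± 0.25, −1.53 ± 0.35 and −1.17 ± 0.31 in COC, IVO, IMZ and IVZ (adjusted p 0.000467 to 0.0132, limma), and under median-of-ratios scaling the IMZ call was lost (−1.09, adjusted p 0.0525). Only 22 to 268 reads lay behind these polysomal values where depth was recovered. Prkar2b was not listed in the polysomal tables that hold IVM, which list genes at 0.2 RPKM or more in every library. Prkaca and Prkacb were listed in no polysomal table.

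Prkar1a was between these. Its polysomal libraries read 10.2, 12.9, 11.9 and 10.4 RPKM in IVM and 5.94, 9.01, 12.6 and 13.0 in IVO, each below the total RNA libraries of 18.6 to 20.9. The differences of −0.81 ± 0.17 and −0.95 ± 0.25 were called (adjusted p 0.00450 and 0.00690, limma), and both calls were lost under median-of-ratios scaling, at −0.33 (adjusted p 0.181) and −0.35 (0.228). In IVZ its polysomal mean of 24.1 ± 8.499 lay close to the total RNA mean of 22.2 ± 1.01. COC and IMZ were not called, but without COC polysomal replicate 1 the difference was −0.80 (adjusted p 0.0324) and without IMZ polysomal replicate 1 it was −0.56 (0.0211). Whether the polysomal minus total RNA difference itself differed between IVO and IVZ was not tested.

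Gpr3 lay above the shift of all genes in all 5 cell types. It read 18.3, 45.9, 38.7 and 44.3 RPKM in COC polysomes against 19.9 to 24.8 in COC total RNA. The COC difference of 0.64 ± 0.26 was called (adjusted p 0.0457, limma), although COC polysomal replicate 1, at 18.3, lay below every COC total RNA library. The call was lost when any of 7 of the 8 libraries was left out (adjusted p 0.0599 to 0.125 across these). In the other cell types the difference lay between −0.02 and 0.27 and was not called. Under median-of-ratios scaling Gpr3 was called higher in polysomes in all 5 cell types, at 0.76, 1.06, 0.88, 0.52 and 0.62 (adjusted p 0.0183, 0.00296, 0.0225, 0.0214 and 0.0473, limma).

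Gnas read 14.8, 13.6, 10.9 and 9.54 RPKM in COC polysomes, below the COC total RNA libraries of 15.2 to 18.2. The difference of −0.47 ± 0.18 was called (adjusted p 0.0363, limma), near the −0.40 of all genes. Under median-of-ratios scaling it was −0.07 (adjusted p 0.783), and it was also lost without any of 5 of the 8 libraries. In IVM it was −0.58 ± 0.24 (adjusted p 0.0653), and −0.76 (adjusted p 0.00426) without polysomal replicate 1, which the authors excluded and which read 16.6 beside 8.95 to 10.8 in the others. In IVO, IMZ and IVZ Gnas was not called, and under scaling its difference had a positive sign in all 3. Without the excluded library the Gja4, Pde3a and Prkar1a calls in IVM held at 1.67, −1.04 and −0.76, and without IVZ polysomal replicate 1 the Gja4, Pde3a and Prkar2b calls in IVZ held at 1.21, −0.96 and −1.10.

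**Figure D4:**
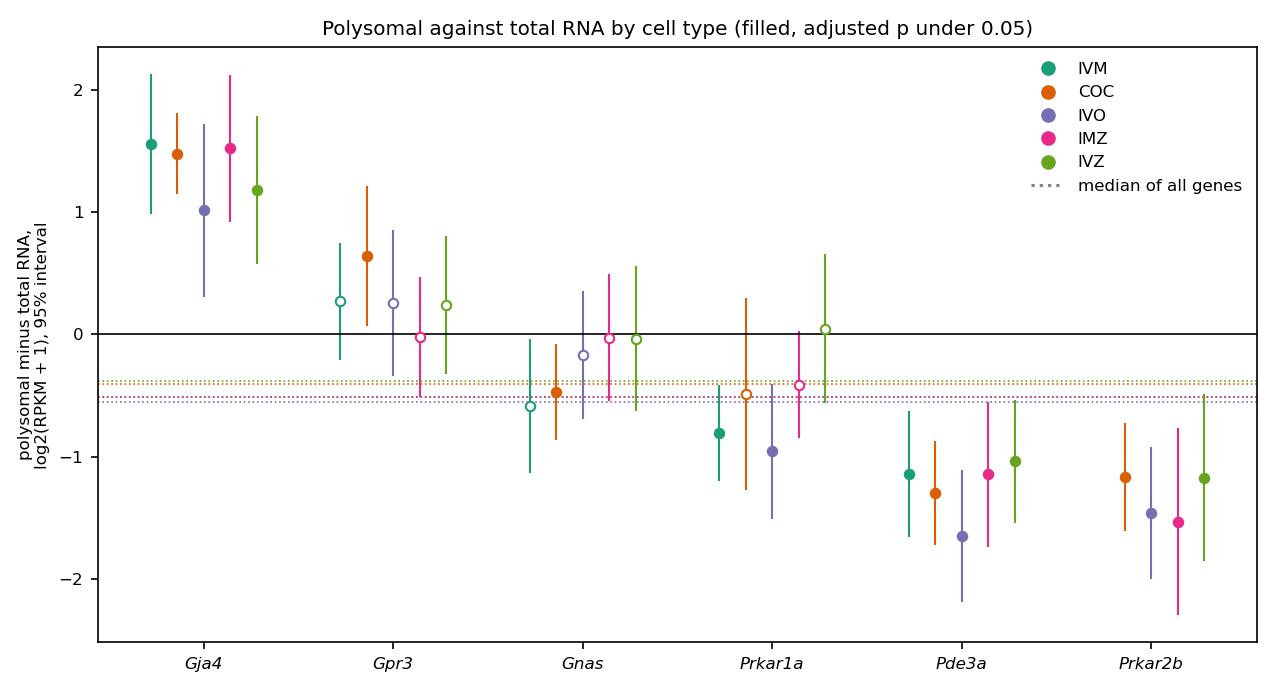
Polysomal minus total RNA in log2(RPKM + 1) with 95% intervals for the 6 genes listed in polysomal RNA, coloured by cell type, with filled points for an adjusted p under 0.05 and dotted lines at the median of all genes in each cell type. Gja4 lies at 1.01 to 1.55 in all 5 cell types, Pde3a at −1.65 to −1.04, and Gpr3 above the dotted lines throughout.

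Whether maturation conditions altered this polysomal minus total RNA difference was asked with a condition by fraction term. No member and no gene was called in IVM against IVO, COC against IVO, IVM against COC or IMZ against IVZ (0% each). At an unadjusted p under 0.05, 3.28%, 5.11%, 5.31% and 4.92% of all genes passed, and 0 members. The interval of the term for Gja4 in IVM against IVO was −0.36 to 1.44 and for Pde3a −0.21 to 1.23. A doubling of the polysomal to total RNA ratio in IVM would lie inside both intervals. Without IVM replicate 1 these intervals were −0.29 to 1.598 and −0.09 to 1.31. Without the library that the authors excluded, 0 members were called in the 3 terms that hold one.

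The ends of the 3′ untranslated regions were read because polyadenylation signals, together with cytoplasmic polyadenylation elements (CPE) that bind CPEB1, are known to steer translation of stored mRNA during oocyte maturation. Shown are the 30 bases that end with the most 3′ signal for Gja4, high in polysomes, and for Prkar2b, low in them. Prkar1a, which lay between these, is shown too, and its low calls in IVM and IVO were lost under median-of-ratios scaling. Pde3a, low in polysomes in every cell type, had no signal in the stretch searched. Sequences are from GENCODE M21 transcripts (GRCm38), in transcript direction, with capitals for a CPE (TTTTAT or TTTTAAT) or a signal (AATAAA or ATTAAA).
Gja4: tagttccactgtttatgatcctcaAATAAA
Prkar2b: ccttatAATAAAgcacacTTTTATAATAAA
Prkar1a: gactgtctcaatggtaggtcacagAATAAA

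The search covered the last 100 bases of the annotated 3′ untranslated region, on the transcript strand only. Prkar2b held a CPE there, directly before its most 3′ signal and without overlap. That signal forms the last 6 bases of the annotated transcript, and a further AATAAA lies before the CPE. Gja4 and Prkar1a, like Gnas, Pde3a and Prkaca, had no such letters in this window. Prkacb and Adcy3 held 1 each, so 3 of the 8 members read did. The share was 17.9% of 19572 protein-coding genes and 20.1% of the 10625 of them listed in the tables. Adcy3, counted among the members read, is not listed in the tables, and its CPE overlaps its signal ATTAAA. Pde3a had neither signal there. A match describes the letters of the annotated end, and other ends of these transcripts were not analysed here.

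Across the 10 group means, the genes whose log2(RPKM + 1) ran most like each member among 4320 genes in all tables were Psmb4 and Mrpl34 for Gja4 (Pearson r 0.996 for both), Tdrkh and Pcnt for Pde3a (0.995 and 0.994) and Vac14 and Mybl2 for Gpr3 (0.976 and 0.958). They were Ccdc115 and Gars for Prkar1a (0.970 and 0.966) and Smap2 and Bmp15 for Gnas (0.919 and 0.913). These values are a description: the points share their libraries and mix both fractions with all cell types.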

How the data were processed

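Per the file headers, the 8 deposited tables, 1 per comparison and fraction, give RPKM for each gene in each library, and beside it a log2 fold change and a p-value computed by the authors. The labels' protocols name the SMARTer Stranded kit for total RNA of picogram input (v2). The submitters' processing notes name DRAGEN and GRCm39. Annotation, strand setting and statistical test: not given in the sources used here. No gene below 0.2 RPKM in any of the 8 libraries of a table is in it. A library present in several tables has identical RPKM in them (largest difference 0 over 24 columns compared), so groups of different tables were compared on the genes both list.

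No counts were used. Each comparison was fitted over its own groups with limma 3.58.1 (R 4.3.3), with a variance trend, on log2(RPKM + 1), which understates changes of low genes. The call threshold was 0.05 for the p-value adjusted by Benjamini-Hochberg over the whole table. Polysomal against total RNA was fitted as unpaired on genes in both fractions' tables, and the condition by fraction term over 16 libraries. Depth was recovered from steps between low RPKM values with GENCODE M21 exonic lengths, and the fits were tested on simulated data. There the sizes of simulated doublings were recovered in total and polysomal RNA, but the fit of a polysomal table of oocytes, COC against IVO, called none of them. Intervals are 95% and cover the fitted spread between libraries.

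The members and lists were chosen with earlier results of these data known. Fold changes are printed for a member at an unadjusted p under 0.05 or where another setting calls it, and intervals or levels elsewhere. Of each list, up to 3 called genes are named, or that with the smallest p. Alternatives were median-of-ratios scaling, a smaller pseudocount (0.1), a filter at a mean of 1 RPKM, the replicate number as a block, each library left out, the libraries that the authors set aside left out, and adjustment of the authors' own p-values. The 3′ end of Gpr3 is not reported here.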

Additional observations from a re-analysis of the deposited data

Results flagged for a closer look

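In 3 of the 69 sets of 4 libraries tested for these genes, 1 library stood far from the others, where chance alone flags about 1 in 20. Pde3a in IVZ polysomal replicate 4 was at 21.1 RPKM, beside 12.4 to 13.4 in the others. Prkacb in COC total RNA replicate 3 was at 1.18 RPKM, beside 1.68 to 1.73. Prkar2b in IVM total RNA replicate 2 was at 7.09 RPKM, beside 5.79 to 5.996.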

How the results depend on the processing

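Counts of members called were the same, or within 1.5 times, under most alternatives. For IMZ against IVZ in total RNA, leaving out each library gave 0 to 1 members, and for IVZ against IVO in total RNA 1 to 2. For polysomal against total RNA in COC it gave 3 to 6. In no comparison did the deviations of same-numbered libraries correlate above 0.1 in all 4 pairs, so the numbers were not taken to pair samples. Judged by the lowest pair, IVZ against IVO in total RNA came nearest, with 3 of 4 pairs above 0.1 and the lowest at 0.0291. COC against IVO in total RNA also had 3 of 4 pairs above 0.1, with the lowest at −0.177 and the highest at 0.655. There 3 of 4 IVO libraries correlated best with the COC library of their own number. IVZ against IVO in polysomal RNA had 3 pairs above 0.1 as well. In no comparison did every library correlate best with its own number. With the replicate block 2 members were called for IVZ against IVO in total RNA (Pde3a joined Gja4, adjusted p 0.0255, limma), and no other count of members moved beyond 1.5 times. The block also ended the calls of Gnas in COC polysomal against total RNA (adjusted p 0.0782), of Impdh2 in IVM against IVO (0.174) and of Gnb1 and Mastl in IMZ against IVZ (0.0950 and 0.0688). With the block, all genes called fell from 56 to 1 for IVM against IVO and from 180 to 67 for IMZ against IVZ in total RNA, went from 5 to 1 for IVM against COC and from 1 to 2 for COC against IVO, and rose from 27 to 55 for IVZ against IVO in polysomal RNA. Median-of-ratios scaling gave 11 and the filter on mean RPKM 34 genes for IVM against IVO in total RNA. The authors' deposited p-values, adjusted, gave 104, 28, 34 and 429 genes in the 4 total RNA tables and 12, 25, 0 and 163 in the polysomal ones, with no member among them. Leaving out each library gave 7 to 52 genes for IVM against IVO and 29 to 424 for IMZ against IVZ in total RNA. No member called in the reported fits changed direction under any alternative. For polysomal against total RNA in IMZ, the members without a call there took the opposite sign in another setting. Gpr3 went from −0.02 to 0.52, called under scaling. Prkar1a went from −0.56, called without IMZ polysomal replicate 1, to 0.12 under scaling. Gnas ranged from −0.26 to 0.51 and was called in no setting. The causes were not tested. Depth was not recovered for 8 polysomal libraries, and the polysomal IVM and IVO libraries could not resolve a doubling of Gja4.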
